A study of Homo sapiens with 6 samples.

Results

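The adhesion molecules described here are 10 members of the immunoglobulin superfamily: ICAM1, ICAM3, ICAM5, VCAM1, ALCAM, MCAM, BCAM, NCAM1, L1CAM and F11R. They are 10 of the 64253 genes in the deposited count table, and 8 of them had enough reads to be tested among 16091 genes. The set was chosen from a gene family with the fold changes of these same libraries in view, ICAM1 and ALCAM being among the lowest of the table. The members' differences between the groups are therefore given as a description, with no p-value.

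The 6 libraries were made from RNA of NCI-H1299, a human lung adenocarcinoma cell line. MTSS1, the gene tested, encodes a scaffold that binds and bends membranes through an I-BAR domain and organises actin beneath them. The MTSS1 overexpressing cells (3 libraries) carried a plasmid for mCherry-tagged MTSS1, were kept under hygromycin and were sorted by flow cytometry. The wild type cells (3 libraries) were the same line, and there was no control-plasmid library. The tag, the drug selection and the sorting thus cannot be told apart from MTSS1 itself. The protocol text names HEK293T cells in connection with the transfection. The labels do not say whether the libraries came from separate cultures, or whether the sorted cells were 1 clone, so a p-value reflects no more than the scatter among these 6 libraries.

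Immunoglobulin-superfamily adhesion molecules are membrane proteins, most of them single-pass, that hold cells together through domains folded like those of antibodies. Some bind integrins on leukocytes, some bind copies of themselves or of a relative on a neighbouring cell, and some bind the matrix. The short tails of the single-pass ones reach the cortical actin network through adaptor proteins. In epithelial and endothelial cells ICAM1 and VCAM1 are textbook targets of NF-κB, the transcription factor activated by inflammatory cytokines, and ALCAM, MCAM and L1CAM have been studied as markers of invasive tumours.

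MTSS1 (ENSG00000170873) had 550, 544 and 568 CPM (TMM-scaled read counts, relative to library size) in the overexpressing libraries, against 24.2, 18.0 and 24.3 CPM in the wild type libraries. Its level was 25.1-fold higher in the overexpressing libraries (log2 fold change 4.65, SE 0.13). Library totals lay between 13883380 and 25741708 counts in the overexpressing group and between 19018751 and 29479453 counts in the wild type group. Replicate 1 of both groups stood apart on the first principal component, with 34.8% of the variance, and the groups parted on the second, with 32.9%. Among markers of the labelled cell type, the epithelial keratin gene KRT18 was abundant in both groups (299 ± 88.3 CPM in overexpressing and 522 ± 105 CPM in wild type cells, SD, n = 3 each). The defining epithelial genes CDH1 and KRT19 were near 0, with 7 and 2 pooled counts in overexpressing and 4 and 0 in wild type libraries. Of all tested genes 4.28% were called in either direction, where called means an adjusted p under 0.05 in edgeR's quasi-likelihood test, and 2.45% were called lower in overexpressing cells. A gene's CPM did not overlap between the groups for 25.5% of tested genes in either direction and for 13.5% in the lower direction.

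Promoters of 4 members are shown first, because ICAM1 and VCAM1 are named together as NF-κB targets while VCAM1 was near 0 here, ALCAM is the other member far below wild type, and ICAM5 is the close neighbour of ICAM1 that was not called. Each stretch is the 250 bases before the RefSeq transcription start on GRCh38.p14, read on the gene's plus strand. Capitals mark every match, on either strand, of 6 motifs. Among them were GGAANTTCC, an NF-κB site of 9 bases, and TTCNNNGAA, a spacing read by STAT factors. The TATA box was searched as TATAAA, the core of an SP1 site as GGGCGG, and another box by its letters CCAAT. The last was the NF-κB consensus of 10 bases, whose matches can overlap those of the first but need not. The stretches lie at chr19:10270870-10271119 for ICAM1, chr1:100719492-100719741 for VCAM1, chr3:105366659-105366908 for ALCAM and chr19:10289702-10289951 for ICAM5.
ICAM1: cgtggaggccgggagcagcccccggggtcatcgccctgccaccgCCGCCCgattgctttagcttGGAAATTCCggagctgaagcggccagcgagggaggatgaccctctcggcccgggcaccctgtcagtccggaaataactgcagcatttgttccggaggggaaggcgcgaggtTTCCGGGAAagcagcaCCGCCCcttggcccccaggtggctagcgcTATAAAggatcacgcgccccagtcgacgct
VCAM1: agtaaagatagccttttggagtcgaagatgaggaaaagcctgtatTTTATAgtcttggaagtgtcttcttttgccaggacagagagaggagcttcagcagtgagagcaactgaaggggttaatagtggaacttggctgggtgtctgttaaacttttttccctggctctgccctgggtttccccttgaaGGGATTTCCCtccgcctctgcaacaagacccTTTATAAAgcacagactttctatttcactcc
ALCAM: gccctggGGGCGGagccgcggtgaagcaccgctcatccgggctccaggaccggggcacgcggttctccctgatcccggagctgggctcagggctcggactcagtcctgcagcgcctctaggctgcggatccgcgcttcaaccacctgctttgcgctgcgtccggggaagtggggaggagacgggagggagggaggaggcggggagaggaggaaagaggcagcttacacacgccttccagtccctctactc
ICAM5: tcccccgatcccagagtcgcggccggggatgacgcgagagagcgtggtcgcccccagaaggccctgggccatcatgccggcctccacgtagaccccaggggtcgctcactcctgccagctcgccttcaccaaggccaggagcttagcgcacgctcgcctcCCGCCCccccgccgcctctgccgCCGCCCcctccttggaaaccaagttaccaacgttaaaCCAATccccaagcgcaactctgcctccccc

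The ICAM1 stretch held no match of the 10-base NF-κB consensus. It held GGAAATTCC, a match of GGAANTTCC, 186 bases before the start. Matches of GGAANTTCC occur in 0.826% of the 35116 RefSeq promoter windows of the same length. It also held TTCCGGGAA, a match of TTCNNNGAA, 75 bases before the start, a motif found in 6.57% of windows. A TATA box match stood 30 bases before the ICAM1 start, as one does somewhere in 10.7% of windows. The SP1 core was read from the opposite strand at 206 and 59 bases, and 42.6% of windows hold it. The VCAM1 stretch held GGGATTTCCC, a match of the NF-κB consensus on both strands at 62 bases, and that consensus occurs in 9.96% of windows. The TATA box letters matched VCAM1 at 29 bases, overlapping an opposite-strand match at 31 bases, and again on the opposite strand at 205 bases. The ALCAM stretch held a single match, the SP1 core at 243 bases. The ICAM5 stretch held CCAAT at 30 bases (32.0% of windows) and the SP1 core from the opposite strand at 90 and 67 bases. GC content was 66.0% in ICAM1, 46.0% in VCAM1 and 68.8% in both ALCAM and ICAM5. Of the 8 members with a promoter window, ICAM1 was the single one with a match of the 9-base NF-κB site or of the STAT spacing. MCAM and BCAM held 5 matches of the SP1 core each and L1CAM held 2, and none of these 3 matched any of the other motifs. One of the 3 ICAM3 windows matched the NF-κB consensus, at 56 bases. These matches are letters in a window and show no binding.

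ICAM1 (ENSG00000090339, chr19:10270835-10286615, plus strand) encodes the receptor for the leukocyte β2 integrins, through which white cells arrest on and cross other cells. It had 9.91, 6.15 and 8.81 CPM in the overexpressing libraries, against 40.4, 42.6 and 33.5 CPM in the wild type libraries. All 3 overexpressing libraries lay below all 3 wild type libraries, and overexpressing replicate 2 was the lowest. The means were 8.29 ± 1.93 CPM in overexpressing and 38.8 ± 4.72 CPM in wild type cells (SD, n = 3 each), resting on 515 and 2941 pooled reads. The level was 4.73-fold higher in wild type (log2 fold change -2.24, SE 0.18). The log2 fold change stayed between -2.37 and -2.05 in 6 fits that each left out 1 library, and ICAM1 was called in all of them.

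ICAM3 (ENSG00000076662, chr19:10333776-10339823, minus strand), a leukocyte ligand for the same integrin family, stood at 6.98, 8.92 and 6.56 CPM in overexpressing and at 8.17, 7.51 and 8.71 CPM in wild type libraries. The groups overlapped, and overexpressing replicate 2 was the highest of all 6. Its log2 fold change was -0.11 (SE 0.17). An antisense gene shares 2101 exon bases with ICAM3 and had 564 pooled counts. The sources used here do not give whether the counting used strand, which leaves the ICAM3 level uncertain. ICAM5 (ENSG00000105376, chr19:10289981-10296778, plus strand), named telencephalin for its place in forebrain neurons, stood at 13.2, 13.1 and 10.97 CPM in overexpressing and at 15.6, 14.6 and 11.2 CPM in wild type libraries. Replicate 3 was the lowest in both groups, the groups overlapped, and the log2 fold change was -0.15 (SE 0.16).

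VCAM1 (ENSG00000162692, chr1:100719742-100739045, plus strand), the endothelial ligand of the integrin that holds lymphocytes and monocytes, was too low to test. It had 6, 3 and 7 counts in overexpressing libraries and 3, 1 and 0 counts in wild type libraries. Its pooled counts were thus 16 in overexpressing and 4 in wild type libraries, while those of ICAM1 were 515 and 2941. Some broadly expressed genes were also listed near 0 (B2M at 23 and 34 pooled counts, RPS9 at 20 and 17), so a count near 0 is a listed value and not evidence of silence.

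**Figure D1:**
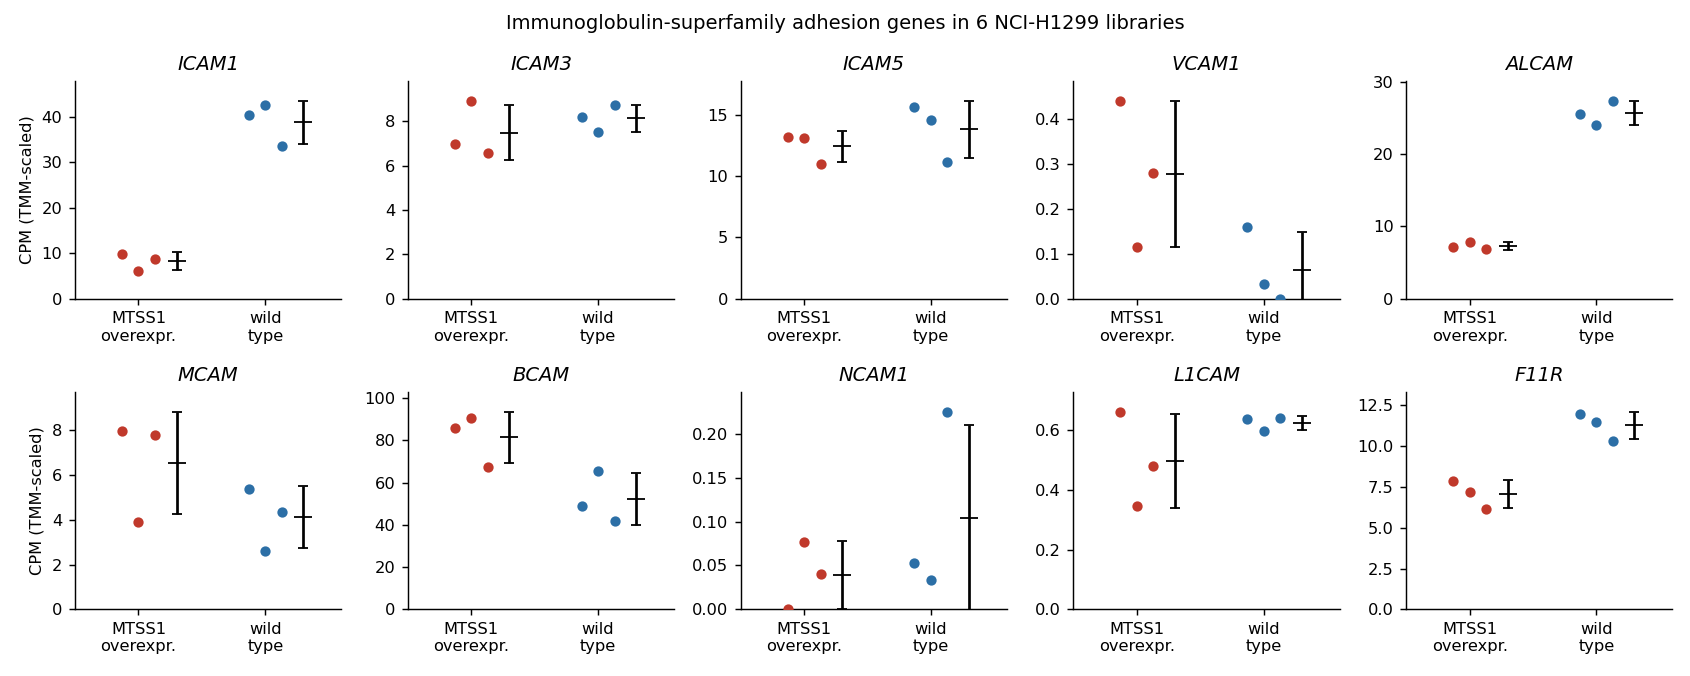
TMM-scaled CPM of each of the 10 genes (linear axis from 0, a scale of its own in each panel) in MTSS1 overexpressing and wild type libraries; coloured points are the 3 libraries of a group and the black mark is their mean ± SD, cut at 0. ICAM1 and ALCAM stood below wild type in all 3 overexpressing libraries, at 6.15 to 9.91 and 6.84 to 7.88 CPM, and VCAM1 and NCAM1 were near 0.

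ALCAM (ENSG00000170017, chr3:105366909-105576900, plus strand) encodes the ligand of the T cell receptor CD6 and also binds itself on adjacent cells. It had 7.12, 7.88 and 6.84 CPM in the overexpressing libraries, against 25.6, 24.1 and 27.4 CPM in the wild type libraries. The groups lay far apart and the libraries within each were close, with coefficients of variation of 7.35% in overexpressing and 6.47% in wild type cells. The means were 7.28 ± 0.54 CPM and 25.7 ± 1.66 CPM (SD, n = 3 each), from 473 and 1941 pooled reads, and the level was 3.52-fold higher in wild type (log2 fold change -1.82, SE 0.13). ALCAM was called in all 6 fits that left out 1 library, at -1.88 to -1.77. ICAM1 varied more, with coefficients of variation of 23.3% in overexpressing and 12.2% in wild type cells.

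MCAM (ENSG00000076706, chr11:119308529-119321521, minus strand), an adhesion receptor of melanoma and vascular cells, stood at 7.93, 3.88 and 7.76 CPM in overexpressing and at 5.36, 2.61 and 4.35 CPM in wild type libraries. Replicate 2 was the lowest in both groups, and the groups overlapped. The log2 fold change was 0.67 (SE 0.34), with the opposite sign to ICAM1 and ALCAM. CBL, on the opposite strand, shares 509 exon bases with MCAM and had 21493 pooled counts. The MCAM level is therefore uncertain if strand was not used.

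BCAM (ENSG00000187244, chr19:44809059-44821421, plus strand), the Lutheran blood group receptor for laminin, had 86.1, 90.6 and 67.4 CPM in overexpressing and 48.9, 65.6 and 41.7 CPM in wild type libraries. Every overexpressing library lay above every wild type library, by a narrow margin between overexpressing replicate 3 and wild type replicate 2. The log2 fold change was 0.64 (SE 0.17), and BCAM was not called. It was called without wild type replicate 2, at 0.85.

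The neural cell adhesion genes were scarcely read. NCAM1 (ENSG00000149294, chr11:112961247-113278436, plus strand), the founding neural member, had 0, 2 and 1 counts in overexpressing and 1, 1 and 6 counts in wild type libraries and was not tested. L1CAM (ENSG00000198910, chrX:153861514-153886174, minus strand), which guides axons, had 0.661, 0.346 and 0.480 CPM in overexpressing and 0.636, 0.595 and 0.638 CPM in wild type libraries. Its groups overlapped because of overexpressing replicate 1, and the log2 fold change of -0.37 had an SE of 0.45, from 30 and 47 pooled counts. The 50 tested genes nearest to L1CAM leaned higher, with a median of 0.72, and against it L1CAM stood at -1.08 and was not called.

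F11R (ENSG00000158769, chr1:160995211-161021348, minus strand) encodes JAM-A, a component of epithelial tight junctions. It had 7.86, 7.23 and 6.16 CPM in overexpressing and 12.0, 11.5 and 10.3 CPM in wild type libraries. The groups did not overlap, and F11R was lower in overexpressing cells by 3 of 3 libraries (log2 fold change -0.67, SE 0.16). It was called with all 6 libraries but with any 1 library left out the call was lost, at log2 fold changes of -0.74 to -0.58. The 50 tested genes nearest to F11R on its chromosome also leaned lower, with a median of -0.39, and against that median F11R stood at -0.28 and was not called. AL591806.3 shares 1853 of the 5066 exon bases of F11R on the same strand and had 6 pooled counts, so the F11R level, per length as well, is uncertain.

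Of the 8 tested members, 0 were called higher and 3 lower in overexpressing cells, where 2.45% of all tested genes were called lower, and 5 were not called. The groups did not overlap for 3 members in the lower and 1 in the higher direction. Over all tested genes, they did not overlap for 13.5% in the lower and 25.5% in either direction. The median log2 fold change of the 8 was -0.26, with 6 negative and 2 positive, against a median of 0.00 over all tested genes. The members were picked on this contrast, so nothing is read from these counts. In bulk RNA, fewer cells expressing a gene and less of its RNA per cell cannot be told apart.

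**Figure D2:**
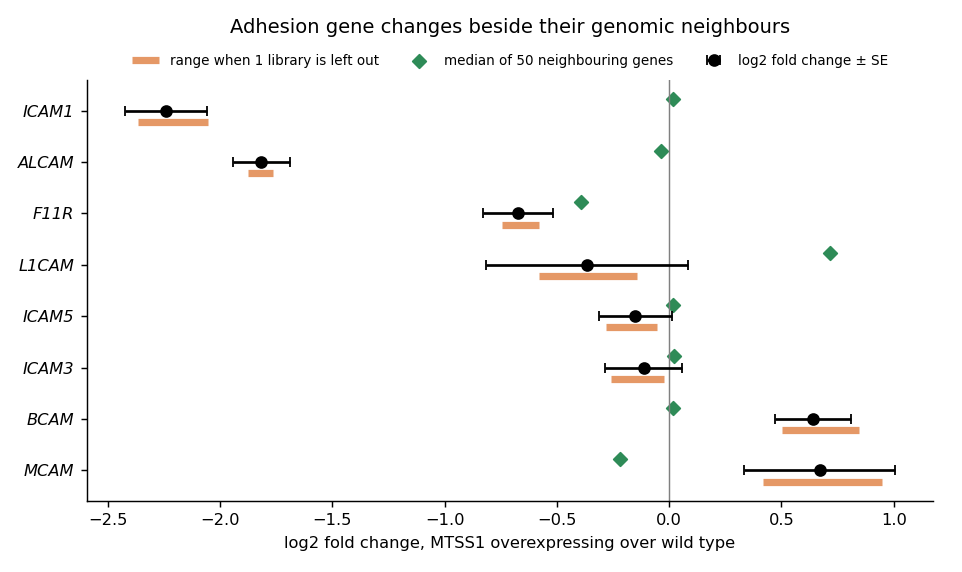
Log2 fold change (MTSS1 overexpressing over wild type) of the 8 tested genes with its SE (black), its range over 6 fits that each left out 1 library (orange bar) and the median log2 fold change of the 50 tested genes nearest on the chromosome (green diamond). ICAM1 and ALCAM lie at -2.24 and -1.82 with neighbour medians near 0, while the F11R neighbours lie at -0.39.

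Per length of exon sequence, the order of the adhesion genes differed between the groups. BCAM led in overexpressing cells at 16.2 ± 2.45 CPM per kilobase, followed by ICAM5 (3.19 ± 0.33), ICAM3 (2.54 ± 0.43), ICAM1 (2.24 ± 0.52), F11R (1.40 ± 0.17), ALCAM (1.01 ± 0.07) and MCAM (0.88 ± 0.31; all SD, n = 3). ICAM1 led in wild type cells at 10.5 ± 1.27 CPM per kilobase, with BCAM next to it at 10.4 ± 2.45, and the ranges of these neighbours overlapped. ALCAM, ICAM5, ICAM3, F11R and MCAM followed in wild type at 3.58, 3.54, 2.76, 2.23 and 0.55 CPM per kilobase. L1CAM was next in both groups at 0.068 in overexpressing and 0.086 CPM per kilobase in wild type cells, ahead of VCAM1 and NCAM1. ICAM1 thus stood first in wild type and the fourth in overexpressing cells, and ALCAM stood the third in wild type and the sixth in overexpressing cells. In overexpressing cells the ranges of ICAM5 and ICAM3, of ICAM3 and ICAM1, of ALCAM and MCAM and of L1CAM and VCAM1 overlapped. In wild type cells those of ALCAM and ICAM5, of ICAM5 and ICAM3 and of VCAM1 and NCAM1 overlapped as well.

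**Figure D3:**
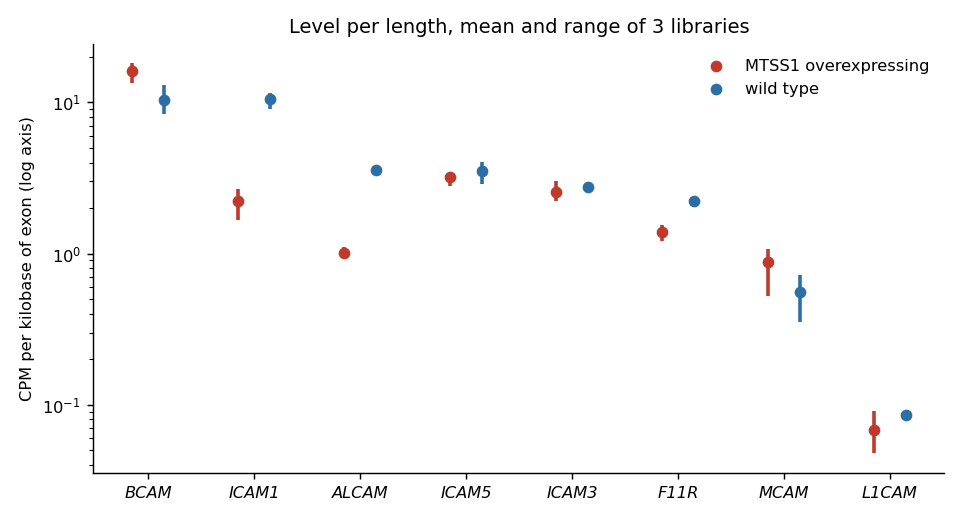
Level of 8 adhesion genes in CPM per kilobase of exon (log axis), with the mean as a point and the range of 3 libraries as a line, for MTSS1 overexpressing and wild type cells. ICAM1 stands at 2.24 in overexpressing and 10.5 in wild type cells, and BCAM, the gene at the left, at 16.2 and 10.4.

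ICAM1, ICAM3 and ICAM5 lie together on the short arm of chromosome 19, which allowed the difference in ICAM1 to be set beside its neighbours. Of 8 other tested genes whose start lies within 100 kb of that of ICAM1, 0 were called, with log2 fold changes from -0.21 to 1.04. The mitochondrial ribosomal gene MRPL4, the tested gene before ICAM1, stood at 0.18 (edgeR adjusted p = 0.36), and ICAM5, the tested gene after it, at -0.15. S1PR2, a sphingolipid receptor gene 49.4 kb before ICAM1, stood at 1.04 (SE 0.43, edgeR adjusted p = 0.21), and the kinase gene TYK2 at 0.12 (edgeR adjusted p = 0.63). The 50 nearest tested genes, spread over 1.88 Mb, had a median of 0.02, and against it ICAM1 stood at -2.26. ICAM4 (chr19:10286967-10288522), the red cell member of the family, begins 351 bases after ICAM1 ends. It was too low to test, with 0, 0 and 3 counts in overexpressing and 9, 36 and 2 counts in wild type libraries, so that wild type replicate 2 held most of its reads.

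ALCAM lies in a gene-poor stretch of chromosome 3. The tested gene before it was NFKBIZ, encoding a nuclear regulator of NF-κB, at -0.01 on the log2 scale (SE 0.18, edgeR adjusted p = 0.98). CBLB, a ubiquitin ligase gene 288.6 kb after the ALCAM start, stood at -0.02 (edgeR adjusted p = 0.97). Among 50 tested genes around ALCAM, 25 on either side, 3 were called, 1 of them lower, and log2 fold changes ran from -0.73 to 1.09. The 50 tested genes nearest to ALCAM by distance, a set that need not split evenly, had a median of -0.04, and against it ALCAM stood at -1.78.

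**Figure D4:**
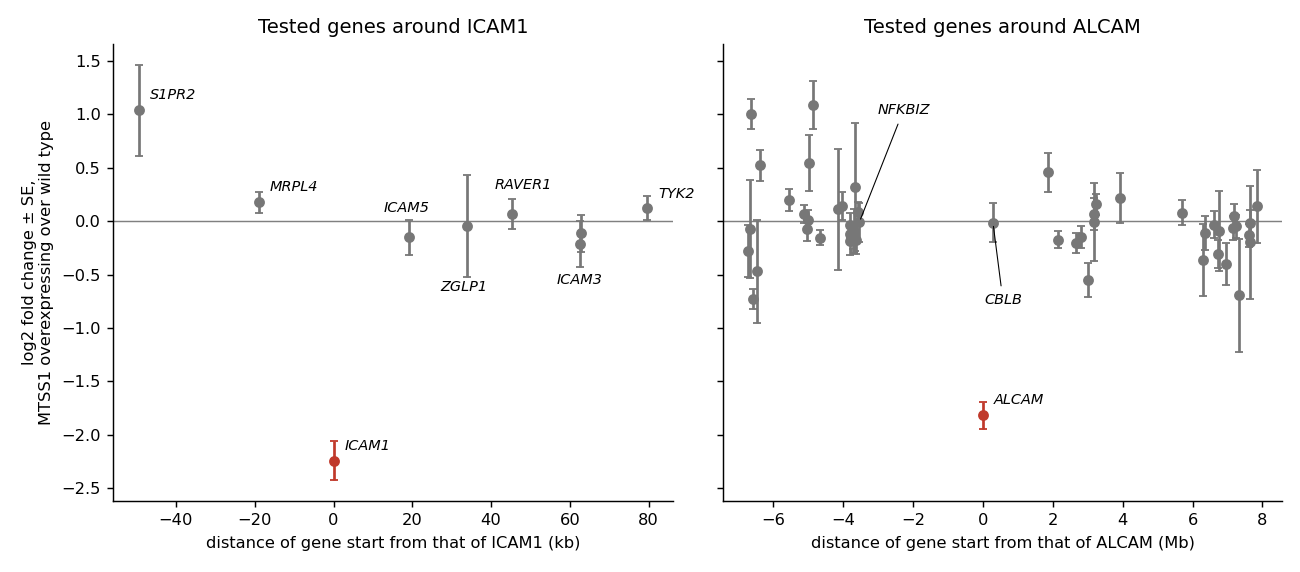
Log2 fold change ± SE (MTSS1 overexpressing over wild type) of tested genes around ICAM1 (within 100 kb, distance in kb) and around ALCAM (25 tested genes on either side, distance in Mb). ICAM1 and ALCAM, in red, lie below every gene shown around them, whose log2 fold changes run from -0.21 to 1.04 and from -0.73 to 1.09.

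Profiles over the 6 libraries were compared as the root mean square difference of log2(CPM + 0.5) after each gene was centred on its own mean, among 10810 genes that averaged 5 CPM or more. The genes most like ICAM1 were CORO2B (0.25), an actin-binding coronin gene, VIPR1 (0.32), a peptide receptor gene, KRT8 (0.33), a keratin gene, LSR (0.34), a tricellular junction gene, and ALCAM (0.36). Those most like ALCAM were STC1 (0.21), CORO2B (0.21), TMEM156, SEL1L3 and HCFC2 (0.25 each), and ICAM1 came at rank 16. CORO2B, which is on both lists, had 5.55 ± 0.62 CPM in overexpressing and 24.0 ± 3.67 CPM in wild type cells (SD, n = 3 each). A shared group difference is enough to bring genes together in this measure.

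Markers of other cells were read beside the adhesion genes, since endothelial cells and leukocytes also carry ICAM1, VCAM1, MCAM or ICAM3. The summed level of 7 endothelial markers was 2.15 to 3.45 CPM in overexpressing and 4.50 to 6.79 CPM in wild type libraries, so it was lower in overexpressing cells as ICAM1 and ALCAM were. KDR, TIE1, VWF and PECAM1 had 91, 51, 16 and 19 pooled counts in overexpressing and 146, 180, 38 and 68 in wild type libraries. The others, CDH5, TEK and EMCN, had 2, 1 and 1 pooled counts in overexpressing and 1, 0 and 0 in wild type libraries. Of the 7, only KDR and TIE1 had enough reads to be tested. They stood at -0.44 and -1.57 on the log2 scale, and neither was called (edgeR adjusted p = 0.54 and 0.2). The sum of 7 leukocyte markers was 1.32 to 4.54 CPM in overexpressing and 1.27 to 4.90 CPM in wild type libraries. Of these leukocyte markers 5 were tested and 0 were called. The 5 epithelial markers summed to 254 to 466 CPM in overexpressing and 569 to 850 CPM in wild type libraries. That sum was made up almost wholly of KRT18 and KRT8, and 1 of the 3 epithelial markers tested was called. EPCAM stood the other way, at 0.88 ± 0.07 CPM in overexpressing and 0.56 ± 0.14 CPM in wild type cells (SD, n = 3 each; edgeR adjusted p = 0.44), and KRT18 was not called (log2 fold change -0.80, edgeR adjusted p = 0.061). KRT8 fell to 49.6 ± 19.2 CPM in overexpressing cells, against 165 ± 41.2 CPM in wild type cells (SD, n = 3 each; edgeR adjusted p = 0.011), a call lost without overexpressing replicate 3 (edgeR adjusted p = 0.0552). The part of this keratin difference in the ICAM1 and ALCAM results was not tested.

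The gene lists below were chosen with earlier results of these data known, so nothing is read from the share called in each. Of 57 other immunoglobulin-superfamily adhesion genes, 31 were tested, of which 2 were called higher, 7 lower and 22 not called. The share called was 29.03%, against 4.28% of all tested genes. Their median log2 fold change was -0.13, against 0.00 over all genes. The other 26 were too low to test, and 11 of these had 0 counts in every library.

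LSAMP, encoding a neuronal adhesion molecule of the IgLON family (chromosome 3), had 6.76, 9.26 and 7.04 CPM in overexpressing libraries, against 0.21, 1.06 and 0.68 CPM in wild type libraries. It rose by 3.49 on the log2 scale in overexpressing cells (SE 0.41, edgeR adjusted p = 0.0035). Its IgLON relative NTM fell, with 14.4 ± 1.46 CPM in overexpressing and 25.8 ± 2.25 CPM in wild type cells (SD, n = 3 each; log2 fold change -0.84, edgeR adjusted p = 0.0098). MPZL3, a relative of the myelin protein zero, fell by 2.80 on the log2 scale to 0.57 ± 0.21 CPM in overexpressing cells, against 3.83 ± 0.40 CPM in wild type cells (SD, n = 3 each; edgeR adjusted p = 0.0036). LSAMP, NTM and MPZL3 were called in all 6 fits that left out 1 library, at adjusted p of at most 0.0242, 0.0472 and 0.0262.

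The other calls in this list were lost in 1 or more of the 6 fits that left out 1 library. CLMP, a tight junction gene, fell by 0.96 on the log2 scale to 22.3 ± 3.13 CPM in overexpressing cells, against 43.3 ± 8.89 CPM in wild type cells (SD, n = 3 each; edgeR adjusted p = 0.017). Its call was kept without replicate 1 of either group or wild type replicate 2 and lost without any 1 of the other 3 libraries (highest edgeR adjusted p 0.0695). KIRREL1, a nephrin relative, and NPTN, a synaptic adhesion gene, fell by 0.50 and 0.47 (edgeR adjusted p = 0.018 and 0.021), and kept the call without overexpressing replicate 1 alone (highest edgeR adjusted p 0.0674 and 0.0895). MPZL1 fell by 0.37 (edgeR adjusted p = 0.032) and lost the call in every such fit, reaching 0.131. The neighbours of these 3 genes had medians of -0.38, -0.33 and -0.36, and against them the differences shrank to -0.12, -0.15 and -0.01 and were no longer called. CADM4, a nectin-like gene, rose by 0.55 (27.5 ± 1.68 CPM in overexpressing and 18.8 ± 2.07 CPM in wild type cells, SD, n = 3 each; edgeR adjusted p = 0.038), and kept the call without wild type replicate 2 alone (highest 0.138). IGSF3 fell by 1.75 to 1.36 ± 0.66 CPM in overexpressing cells, against 4.67 ± 1.56 CPM in wild type cells (edgeR adjusted p = 0.041, n = 3 each), and kept the call without wild type replicate 2 or overexpressing replicate 3 (highest 0.144). Against their neighbours CLMP and IGSF3 stood at -0.73 and -1.63 and were not called (edgeR adjusted p = 0.065 and 0.078).

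NRCAM, a neural relative of L1CAM, stood at 0.77 on the log2 scale (edgeR adjusted p = 0.051) and SIRPA, a receptor of CD47, at -0.96 (edgeR adjusted p = 0.054). Neither was called, and the groups of both did not overlap. NECTIN1 and CNTN1 stood at -0.59 and 0.35 (edgeR adjusted p = 0.14 and 0.15). Among genes too low to test, CEACAM1 had 2 pooled counts in overexpressing and 25 in wild type libraries, PTGFRN 6 and 33, and CADM1 29 and 13. PECAM1 had 19 pooled counts in overexpressing and 68 in wild type libraries, 51 of the wild type counts in replicate 3.

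Of 18 counter-receptors and ligands of the members, 12 were tested, 2 of which were called higher and 0 lower. The share called was 16.7%, against 4.28% of all tested genes, and the median log2 fold change was 0.02. GFRA1, encoding a receptor for glial growth factors that NCAM1 works with, rose by 1.06 on the log2 scale to 21.8 ± 2.03 CPM in overexpressing cells, against 10.5 ± 1.93 CPM in wild type cells (SD, n = 3 each; edgeR adjusted p = 0.0091), and was called in all 6 fits without 1 library. ITGAM, encoding the αM subunit of a β2 integrin that binds ICAM1, had 8.81, 6.03 and 9.65 CPM in overexpressing and 3.66, 3.14 and 3.90 CPM in wild type libraries (log2 fold change 1.19, edgeR adjusted p = 0.021). ITGAM kept its call without overexpressing replicate 2 and lost it without any 1 of the other 5 libraries (highest edgeR adjusted p 0.0895). ITGB2, encoding the β subunit that αM needs at the surface, was low, at 0.55 ± 0.40 CPM in overexpressing and 0.73 ± 0.53 CPM in wild type cells (SD, n = 3 each; edgeR adjusted p = 0.84). ITGAX, another partner of ITGB2, stood at 0.83 (edgeR adjusted p = 0.33), and ITGAL, the lymphocyte partner, had 19 pooled counts in overexpressing and 5 in wild type libraries. LAMA5, the laminin chain that BCAM binds, stood at -0.53 (edgeR adjusted p = 0.082). ITGB3 and FGFR1 stood at -0.90 and 0.31 (edgeR adjusted p = 0.095 and 0.12), and CD6, the ALCAM receptor, had 3 pooled counts in overexpressing and 6 in wild type libraries.

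Of 19 cytoplasmic partners, the adaptors and actin linkers behind the tails of these molecules, 18 were tested, 1 of which was called higher and 3 lower. The share called was 22.2%, against 4.28% of all tested genes, and the median log2 fold change was -0.08. AFDN, encoding afadin, which binds the tails of nectins and JAM proteins, fell by 0.51 to 225 ± 9.61 CPM in overexpressing cells, against 320 ± 12.8 CPM in wild type cells (SD, n = 3 each; edgeR adjusted p = 0.0098) and was called in all 6 fits without 1 library. MSN, encoding moesin, which ties ICAM tails to actin, had 838, 828 and 798 CPM in overexpressing and 1236, 1109 and 1149 CPM in wild type libraries. It fell by 0.50 (edgeR adjusted p = 0.011), and lost the call without replicate 3 of either group (highest edgeR adjusted p 0.0566). The other members of the moesin family, EZR and RDX, stood at -0.31 and -0.32 and were not called (edgeR adjusted p = 0.064 and 0.065), with no overlap between the groups. FLNA, a gene of an actin crosslinker, rose by 0.78 (edgeR adjusted p = 0.012), but its neighbours on chromosome X had a median of 0.68 and against them it stood at 0.10 (edgeR adjusted p = 0.78). Its call was lost without wild type replicate 3 (0.0555). Against their own neighbours AFDN and MSN stood at -0.33 and -0.37 and were not called. The polarity gene PARD3 and the tight junction scaffold TJP1 stood at 0.40 and -0.49 (edgeR adjusted p = 0.068 and 0.12).

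Of 13 enzymes that cut these molecules at the surface or add polysialic acid to NCAM1, 12 were tested, 0 of which were called higher and 2 lower. The share called was 16.7%, against 4.28% of all tested genes, and the median log2 fold change was -0.30. MMP14, a membrane-bound matrix metalloproteinase gene (chromosome 14), had 57.1, 51.8 and 50.1 CPM in overexpressing and 128, 98.4 and 118 CPM in wild type libraries. It fell by 1.12 on the log2 scale (SE 0.11, edgeR adjusted p = 0.0016) and was called in all 6 fits without 1 library. ADAM12, a disintegrin and metalloproteinase gene, had 0.29, 0 and 0.12 CPM in overexpressing and 1.54, 0.93 and 1.13 CPM in wild type libraries (log2 fold change -3.31, SE 0.77, edgeR adjusted p = 0.045). It kept the call without overexpressing replicate 1 alone (highest 0.154). The log2 fold change was -4.21 without overexpressing replicate 1 and -2.60 without overexpressing replicate 2, and against its neighbours it was not called (edgeR adjusted p = 0.065). ADAM10, which sheds ALCAM and L1CAM, stood at -0.33 (edgeR adjusted p = 0.065), and MMP2, ADAM9 and BACE1 at -0.96, -0.36 and -0.48 (edgeR adjusted p = 0.052, 0.052 and 0.057), none of them called.

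Of 21 genes that feed ICAM1 and VCAM1 transcription (NF-κB subunits and their kinases, cytokine receptors, STAT and other factors), all were tested, with 1 called higher and 0 lower. The share called was 4.76%, against 4.28% of all tested genes, and the median log2 fold change was 0.11. NFKB2, encoding the p100 precursor of the non-canonical NF-κB subunit p52, had 219, 207 and 203 CPM in overexpressing and 146, 150 and 140 CPM in wild type libraries. It rose by 0.53 (SE 0.07, edgeR adjusted p = 0.0075), and the call was lost without wild type replicate 3 (0.0501). IKBKG and REL stood at 0.79 and 0.38 (edgeR adjusted p = 0.18 and 0.21). The receptor genes IFNGR1 and IL1R1 stood at -0.23 and -1.53 (edgeR adjusted p = 0.21 and 0.22), IL1R1 with an SE of 0.64. RNA counts do not measure the activity of NF-κB or STAT proteins.

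**Figure D5:**
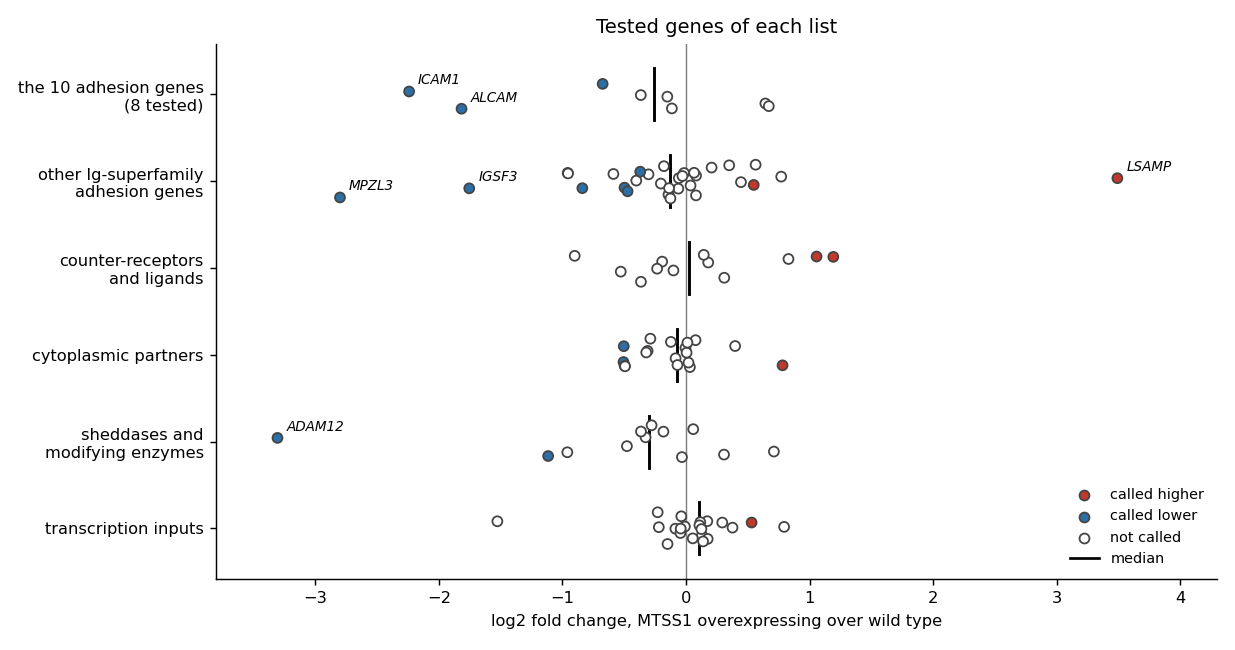
Log2 fold change (MTSS1 overexpressing over wild type) of the tested genes of each list, 1 point a gene with a small vertical scatter, red for called higher, blue for called lower and white for not called in edgeR's test, with the list's median as a black line. LSAMP lies highest at 3.49, ADAM12 and MPZL3 lowest at -3.31 and -2.80, and ICAM1 and ALCAM at -2.24 and -1.82.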

How the data were processed

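The authors deposited unnormalised counts for each Ensembl gene in all 6 libraries. Per the labels' protocols, a directional kit was used on poly(A) RNA, and reads came from one end over 50 cycles. Per the submitters' processing notes, bcl2fastq, HISAT2 2.1.0, HTSeq and GRCh38 were used. The release of the annotation and the strand option were not given in the sources used here. Symbols were matched for 41481 identifiers, 486 of them through GENCODE release 29, which also gave coordinates on GRCh38 and exon lengths, and promoters came from RefSeq (GRCh38.p14).

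Counts were filtered with filterByExpr, scaled with TMM and tested with edgeR 4.0.16 in R 4.3.3 (glmQLFit and glmQLFTest, two-sided, Benjamini-Hochberg over all 16091 genes, threshold 0.05). The biological coefficient of variation was 0.162. Alternatives were RLE scaling, no filter, DESeq2 1.42.0, an offset by the median of 50 neighbouring genes, a block of neighbouring title numbers and leaving out libraries. Replicates of a group differed beyond counting noise (14.7 to 28.0 chi-square units per degree of freedom).

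The members and gene lists were chosen with earlier results of these data known. Named were all members, every called list gene but 1 that is not reported here, up to 4 more per list by smallest p, the 5 genes most like ICAM1 or ALCAM and their tested neighbours. Other genes were named after their values were seen. Protein sequences were not used here.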

Additional observations from a re-analysis of the deposited data

How the results depend on the processing

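ICAM1 and ALCAM were called lower under every alternative run. None of the 8 tested members or 38 list genes changed sign, and RLE scaling changed no call among them. The 38 were those called or with the smallest adjusted p of their list with all 6 libraries, so their stable signs say little. The same holds for ICAM1, ALCAM and the other members. They were chosen with this contrast known, and every alternative reused these libraries. F11R lost its call under the neighbour offset and without any 1 library, as described above. The count of called genes was 688. It was 1489 with no filter on low counts, 1253 with DESeq2, 338 with the neighbour offset, 132 without replicate 1 of both groups (chosen after seeing the data) and 145 to 346 without 1 library. Of the members, 0 were called higher, against 1 (BCAM) with no filter and with DESeq2 and 0 to 1 without 1 library.

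Of the other adhesion genes 9 were called, against 14 with no filter, 4 with the offset, 3 without replicate 1 of both groups and 3 to 6 without 1 library. For counter-receptors the 2 calls became 4 with no filter, 0 without replicate 1 of both groups and 1 to 2 without 1 library. For cytoplasmic partners the 4 calls became 7 with DESeq2, 1 with the offset, 1 without replicate 1 of both groups and 1 to 4 without 1 library. For the cutting and modifying enzymes the 2 calls became 6 with no filter, 6 with DESeq2, 1 with the offset, 1 without replicate 1 of both groups and 1 to 2 without 1 library. For transcription inputs the 1 call became 2 with no filter, 0 without replicate 1 of both groups and 0 to 1 without 1 library. The causes were not tested. Leaving out libraries also leaves fewer samples.

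Library titles hold numbers that fall into 3 neighbouring pairs of 1 overexpressing and 1 wild type library, and no label says that these share a day or batch. Deviations from group means correlated at 0.66, 0.34 and 0.38 within these pairs and at -0.41 to 0.10 otherwise. With a replicate block of these pairs 3651 of the 16091 tested genes were called, against 688 without it. Of the 8 tested members, 3 were called lower and 2 (BCAM and MCAM) higher. Called in either direction were 16 of 31 other adhesion genes, 6 of 12 counter-receptors and 9 of 18 cytoplasmic partners. So were 7 of 12 enzymes and 4 of 21 transcription inputs. Nothing is read from these counts, as more genes were called across the whole table. VCAM1 and NCAM1 were too low to be tested, and L1CAM rests on few counts.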

Other observations

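ICAM2, the endothelial relative of ICAM1, had 1 pooled count in MTSS1 overexpressing and 2 in wild type libraries.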
